A study of Mus musculus with 12 samples.

Results

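The 32 genes described here make, sense, move and dispose of cholesterol, and were followed by RNA sequencing in mouse brain after photodynamic therapy (PDT) with 5-aminolevulinic acid (5-ALA), the precursor that cells turn into the light-sensitive porphyrin of this therapy. They were taken by gene symbol from the 54532 genes of the deposited table, and all 32 were found: 18 enzymes of sterol synthesis, 5 genes that sense sterols, 4 genes of liver X receptor (LXR) signalling and sterol export, and 5 genes of turnover, storage and movement within the cell. Brain tissue was taken from untreated animals, whose titles name PBS, and at 1.5 h, 12 h and 48 h after PDT, with 3 libraries in each of the 4 groups. Treated mice received 5-ALA at 20 mg/kg and, 30 min later, light of 635 nm at 20 J/cm2, and every animal is described as perfused with saline before the tissue was taken. The labels give the strain both as C57BL/6 and as BALB/c, and give no brain region, sex, age or time of day. The labels give no group with light alone or 5-ALA alone, so the contributions of these agents cannot be told apart. The labels do not say that the libraries of a group came from separate animals, and the p-values below measure the spread between libraries. At 12 h, 1 library carries a number that matches none of the titles, and it is called the unnumbered 12 h library.

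The adult brain makes its own cholesterol, because the blood-brain barrier keeps out the lipoproteins that carry it in plasma. Oligodendrocytes use much of it for myelin, astrocytes pass it to neurons on lipoprotein particles, and neurons remove the excess by hydroxylating it. When sterol in the endoplasmic reticulum is scarce, Scap escorts the sterol regulatory element-binding proteins (SREBPs, from Srebf1 and Srebf2) to the Golgi, where they are cleaved into transcription factors that switch on synthesis. Insig proteins hold Scap back when sterol is plentiful, and hydroxylated sterols activate LXR, which switches on exporters such as Abca1 and Abcg1 and also Srebf1.

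Promoters of 4 genes that rose at 12 h are shown here. They were chosen by smallest p at that time, among synthesis enzymes and among other members. SREBP acts on genes of sterol synthesis with the partner factors NF-Y and Sp1. Each run of 300 bases is the RefSeq window on GRCm38.p6 from 250 bases before to 50 bases after the annotated start, and capitals mark any of 6 short motifs searched on both strands.
Hmgcs1, chr13:119690101-119690400, plus strand: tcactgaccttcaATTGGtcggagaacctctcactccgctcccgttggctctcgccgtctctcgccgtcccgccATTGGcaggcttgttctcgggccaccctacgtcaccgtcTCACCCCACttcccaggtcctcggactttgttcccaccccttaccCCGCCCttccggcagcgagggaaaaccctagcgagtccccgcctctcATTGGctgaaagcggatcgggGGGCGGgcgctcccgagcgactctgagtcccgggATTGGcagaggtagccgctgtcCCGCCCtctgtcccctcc
Cyp51, chr5:4104648-4104947, minus strand: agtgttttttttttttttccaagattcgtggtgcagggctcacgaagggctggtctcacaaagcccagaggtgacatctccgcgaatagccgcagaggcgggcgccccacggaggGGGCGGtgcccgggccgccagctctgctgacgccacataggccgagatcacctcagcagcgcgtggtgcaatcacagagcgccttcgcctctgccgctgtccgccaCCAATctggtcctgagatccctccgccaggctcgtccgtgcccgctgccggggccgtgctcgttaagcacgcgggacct
Msmo1, chr8:64733529-64733828, minus strand: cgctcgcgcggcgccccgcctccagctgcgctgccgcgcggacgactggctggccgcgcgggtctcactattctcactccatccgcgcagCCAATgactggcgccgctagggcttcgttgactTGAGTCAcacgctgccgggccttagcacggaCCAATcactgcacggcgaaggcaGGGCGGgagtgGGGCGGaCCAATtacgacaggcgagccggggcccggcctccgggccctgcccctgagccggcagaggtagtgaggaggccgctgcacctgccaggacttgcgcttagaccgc
Insig1, chr5:28071162-28071461, plus strand: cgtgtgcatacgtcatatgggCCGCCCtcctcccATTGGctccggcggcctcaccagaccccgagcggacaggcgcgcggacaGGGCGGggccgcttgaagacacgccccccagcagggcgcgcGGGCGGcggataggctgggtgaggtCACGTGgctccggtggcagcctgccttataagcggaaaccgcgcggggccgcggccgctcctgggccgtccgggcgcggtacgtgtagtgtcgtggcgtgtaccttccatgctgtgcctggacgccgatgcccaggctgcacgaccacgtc
The motifs were TCACNCCAC for the sterol regulatory element, CCAAT for NF-Y, GGGCGG for Sp1, CACGTG for the E-box, TGANTCA for AP-1, and a direct repeat of the nuclear receptor half-site for LXR. Of the 32 genes, 26 had a window. CCAAT was found for 21 of the 26 and for 14 of the 15 synthesis enzymes with a window, against 41.1% of all 27025 genes with a window. GGGCGG was found for 23 of the 26 and for 14 of the 15 synthesis enzymes, against 38.2% of all genes. The sterol element as spelled here was found for Hmgcs1 alone, where it begins 137 bases before the start, and for 1.44% of all genes. CACGTG was found for 6 of the 26 genes (8.09% of all genes), TGANTCA for 2 (8.97%) and the LXR repeat for 0 genes (0.0148%). These matches describe letters in the windows and say nothing about binding.

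Values are deposited FPKM, the fragments assigned to a gene scaled to the gene's length and to the library's assigned reads. The values of each library fell on whole-read steps that give 15348579 to 17444654 assigned reads per library. A gene was tested where it exceeded 0.5 FPKM in at least 3 of the 12 libraries, which 17664 genes and 31 of the 32 members did. Changes are differences of mean log2(FPKM + 1) from a limma fit over all 4 groups, given with their standard error (SE), and a gene is said to rise or fall where its Benjamini-Hochberg adjusted p over the 17664 genes was below 0.05. The pseudocount of 1 shrinks the changes of genes near or below 1 FPKM. Replicates 1 and 3 at 1.5 h stood apart from the other libraries: the share of reads from mitochondrial genes was 12.4% and 9.14%, where controls had 4.16% to 6.02%, and their slopes of log2 level on gene length were -0.104 and -0.060 per doubling of length, against 0.027 to 0.041 in controls. The third 1.5 h library, replicate 2, had 4.16% and a slope of 0.028. Neuron, oligodendrocyte and astrocyte markers were present in every library, as the label brain tissue requires.

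In the untreated brain the most abundant of the 32 RNAs per length was Cyp46a1, the neuronal enzyme that hydroxylates cholesterol for removal, at 76.0 ± 6.87 FPKM (SD, n = 3). Srebf2 at 34.1 ± 0.926 FPKM and Hmgcs1 at 32.8 ± 1.81 FPKM came next, and Srebf2 and Hmgcs1 did not differ beyond their spread. Fdft1 followed at 21.1 ± 1.74 FPKM. At the low end stood Soat1 at 1.69 FPKM, Nr1h3 at 1.45 FPKM and Fdps at 0.240 FPKM. Fdps, farnesyl diphosphate synthase, lay between 0.117 and 0.660 FPKM over all 12 libraries, with only 6 to 52 reads each, and was not tested. How reads shared with copies of a gene elsewhere in the genome were counted is not given in the sources used here.

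At 12 h after PDT, RNAs of cholesterol synthesis enzymes rose, from the mevalonate steps to the late ring desaturation, along with the feedback gene Insig1. Of the 31 tested members, 11 rose and 1 fell, or 38.7%, where 21.2% of all tested genes were called (13.3% higher, 7.9% lower). Synthesis enzymes made up 10 of the 11 that rose, of 17 tested, and 0 fell. The median log2 change over the 17 enzymes was 0.69, over all 31 members 0.31 and over all genes 0.00, and 16 of the 17 enzymes had a positive change. In 12 of the 17, every 12 h library lay above every control library, and in 1, Tm7sf2, every 12 h library lay below, where 28.2% of all genes lay above and 26.2% below. The count of 12 called members became 19 without 1.5 h replicate 2, where 32.5% of all genes were called, and 19 without 1.5 h replicates 1 and 3 together, where 35.2% were. It lay between 9 and 19 over the omission of each library. In bulk tissue, fewer or more cells of a type and less or more RNA per cell cannot be told apart.

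**Figure D1:**
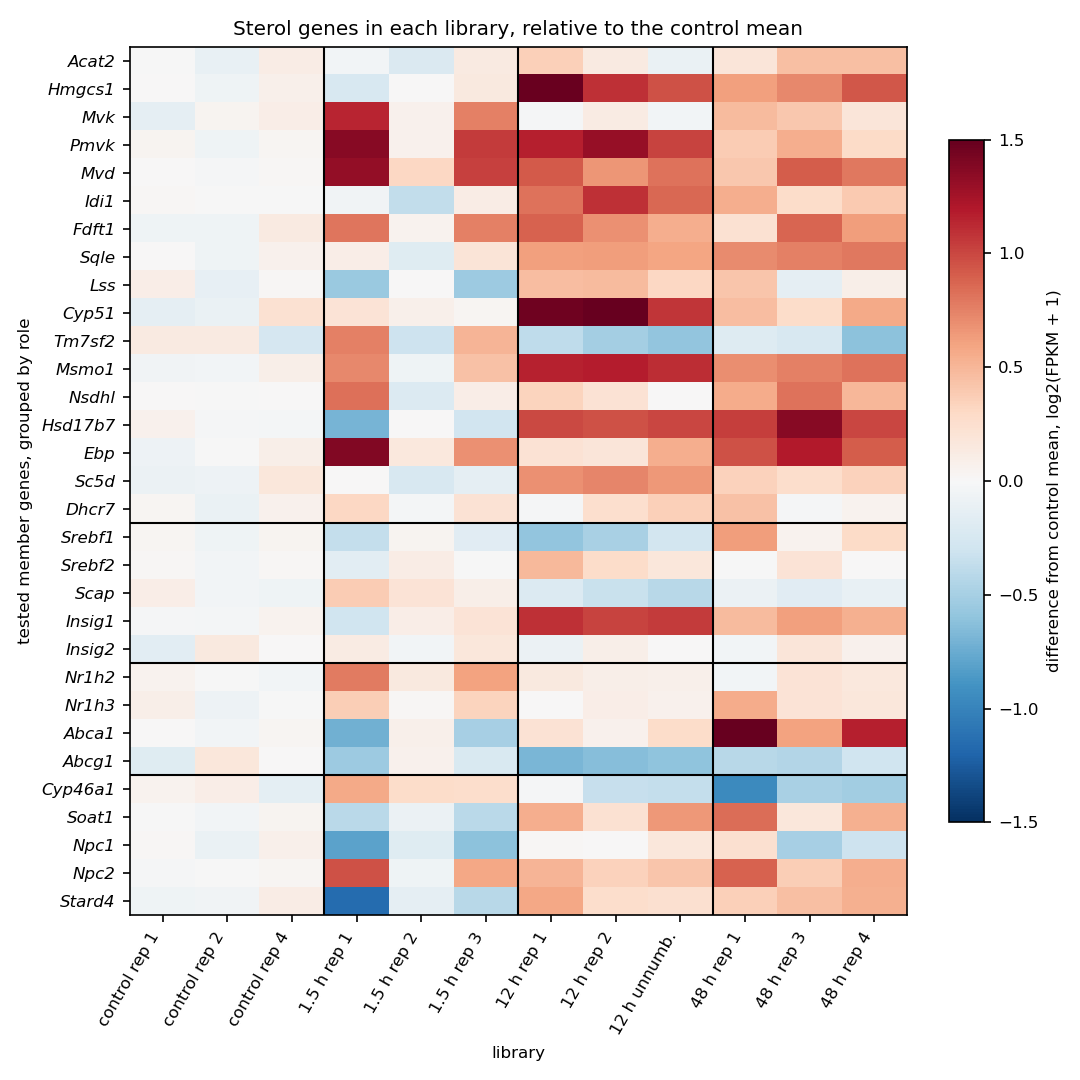
Difference of log2(FPKM + 1) from the control mean for the 31 tested members (rows, grouped by role) in each of the 12 libraries (columns), with colours limited to 1.5 on either side of 0. The red block at 12 h covers most synthesis enzymes and Insig1, and 1.5 h replicates 1 and 3 differ from replicate 2 in many rows.

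The early enzymes build the isoprene units. In all per-library values that follow, libraries are in the order replicates 1, 2 and 4 for controls, 1, 2 and 3 at 1.5 h, 1, 2 and unnumbered at 12 h, and 1, 3 and 4 at 48 h. Gene positions are those of the deposited table, which match GRCm38 for 29 of the 32 genes. Hmgcs1, the cytosolic HMG-CoA synthase (ENSMUSG00000093930, chromosome 13, 119690379 to 119708260, plus strand), had 32.6, 31.0 and 34.6 FPKM in controls, 27.5, 32.9 and 36.5 FPKM at 1.5 h, 93.0, 70.9 and 64.1 FPKM at 12 h, and 50.8, 54.5 and 63.4 FPKM at 48 h. Every 12 h and 48 h library stood above all controls, and the 1.5 h libraries overlapped them. Its log2 change at 12 h was 1.17 ± 0.16 (SE, limma adjusted p = 0.00059), with 76.0 ± 15.1 FPKM at 12 h and 32.8 ± 1.81 FPKM in controls (SD, n = 3 each).

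Pmvk, phosphomevalonate kinase on chromosome 3, had 18.2, 16.7 and 18 FPKM in controls, 47.3, 18.5 and 37.5 FPKM at 1.5 h, 41.0, 45.3 and 36.7 FPKM at 12 h, and 23.3, 26.4 and 21.9 FPKM at 48 h. The 12 h libraries were all more abundant than every control, and the log2 change was 1.17 ± 0.26 (limma adjusted p = 0.0095). Mvd, the decarboxylase that follows it, on chromosome 8, had 11.2, 10.9 and 11.3 FPKM in controls, 29.3, 14 and 23.8 FPKM at 1.5 h, 21.9, 18.2 and 20.3 FPKM at 12 h, and 15.1, 21.8 and 20.0 FPKM at 48 h. Its groups at each time lay wholly above the controls, and at 12 h the log2 change was 0.80 ± 0.23 (limma adjusted p = 0.028). The Mvd call rested on all 6 libraries compared, since leaving out any of them gave an adjusted p of 0.055 to 0.089 with changes of 0.74 to 0.87. Idi1, the isomerase that balances the isoprene units (chromosome 13, 8885501 to 8892451), had 5.32, 5.19 and 5.17 FPKM in controls, 5.00, 3.83 and 5.73 FPKM at 1.5 h, 10, 12.4 and 10.3 FPKM at 12 h, and 8.13, 6.58 and 7.14 FPKM at 48 h. Here the 12 h libraries stood above those of every other group, and the log2 change was 0.93 ± 0.14 (limma adjusted p = 0.00085).

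The enzymes from squalene onwards are specific to sterols. Fdft1, squalene synthase, had 20.0, 20.2 and 23.1 FPKM in controls, 37.3, 21.9 and 36.0 FPKM at 1.5 h, 40.0, 34.5 and 31.1 FPKM at 12 h, and 25, 39.2 and 33.1 FPKM at 48 h. Its log2 change at 12 h was 0.71 ± 0.22 (limma adjusted p = 0.038), and leaving out any of the 6 libraries compared, or 48 h replicate 4, gave an adjusted p of 0.055 to 0.13, and the call was also lost without the filter on low values. Fdft1 shares 774 bases with Ctsb, a lysosomal protease gene on the opposite strand at 113 FPKM at 12 h and 83.8 FPKM in controls, and since the strandedness of the counting is not stated the Fdft1 values are uncertain. Sqle, squalene epoxidase (chromosome 15, 59315077 to 59331192), had 10.7, 10.2 and 11.3 FPKM in controls, 11.6, 9.36 and 12.4 FPKM at 1.5 h, 17.0, 17.2 and 16.6 FPKM at 12 h, and 18.3, 18.7 and 19.3 FPKM at 48 h. Its libraries fell into a lower band for controls and 1.5 h and a higher band for 12 h and 48 h, with no overlap, and the log2 change at 12 h was 0.61 ± 0.11 (limma adjusted p = 0.0031).

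Cyp51, lanosterol demethylase (ENSMUSG00000001467, chromosome 5, 4081145 to 4104746, minus strand), had the largest estimate of the 31 tested members at 12 h on the log2(FPKM + 1) scale. It had 11.7, 12.1 and 15.5 FPKM in controls, 15.3, 13.9 and 13.3 FPKM at 1.5 h, 37.6, 38.5 and 28.4 FPKM at 12 h, and 18.3, 15.9 and 19.8 FPKM at 48 h. The 12 h libraries were far above all others, the 48 h libraries lay just above the controls, and the log2 change at 12 h was 1.34 ± 0.15 (limma adjusted p = 0.00016). Msmo1, the methylsterol oxidase that acts after it (chromosome 8, 64718139 to 64733792), had 10.3, 10.3 and 11.4 FPKM in controls, 18.2, 10.2 and 14.8 FPKM at 1.5 h, 25.1, 25.5 and 24.1 FPKM at 12 h, and 18, 18.8 and 19.6 FPKM at 48 h. The 12 h libraries were again the highest, the 48 h libraries lay between them and the controls, and the log2 change at 12 h was 1.15 ± 0.17 (limma adjusted p = 0.00070).

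Hsd17b7, the ketosteroid reductase of the same demethylation steps (chromosome 1, 169949535 to 169969241), had 4.35, 4.07 and 4.02 FPKM in controls, 2.18, 4.14 and 3.22 FPKM at 1.5 h, 9.23, 8.91 and 9.33 FPKM at 12 h, and 9.55, 12.3 and 9.28 FPKM at 48 h. Its 12 h and 48 h libraries were all more abundant than any control or 1.5 h library, and the log2 change at 12 h was 0.98 ± 0.16 (limma adjusted p = 0.0018). Sc5d, the sterol desaturase near the end of the route on chromosome 9, had 9.11, 9.15 and 11.1 FPKM in controls, 9.85, 8.10 and 8.72 FPKM at 1.5 h, 16.4, 16.8 and 15.9 FPKM at 12 h, and 12.7, 11.8 and 12.6 FPKM at 48 h. The 12 h group stood apart above every other library, and the log2 change was 0.69 ± 0.11 (limma adjusted p = 0.0013).

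The other 7 tested enzymes did not pass at 12 h. Lss, lanosterol synthase, had 5.07, 5.10 and 4.44 FPKM at 12 h, against 3.73, 3.05 and 3.45 FPKM in controls, with a log2 change of 0.41 ± 0.18 (limma adjusted p = 0.12). Tm7sf2, a sterol reductase, had 3.41, 3.05 and 2.83 FPKM at 12 h, against 5.28, 5.30 and 3.82 FPKM in controls, with a log2 change of -0.49 ± 0.24 (limma adjusted p = 0.18), and was the only synthesis enzyme with a negative estimate. Lss lay wholly above the controls and Tm7sf2 wholly below. Tm7sf2 overlaps 9356 bases of Vps51 on the same strand, which was at 0.531 FPKM at 12 h and 0.431 FPKM in controls. How reads in the overlap were counted is not given, so the Tm7sf2 values are uncertain. The estimates for Acat2, Mvk, Nsdhl, Ebp and Dhcr7, which work at the entry to the route, in mevalonate phosphorylation, in demethylation, in isomerisation and in the closing reduction, were 0.13, 0.02, 0.18, 0.31 and 0.20.

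**Figure D2:**
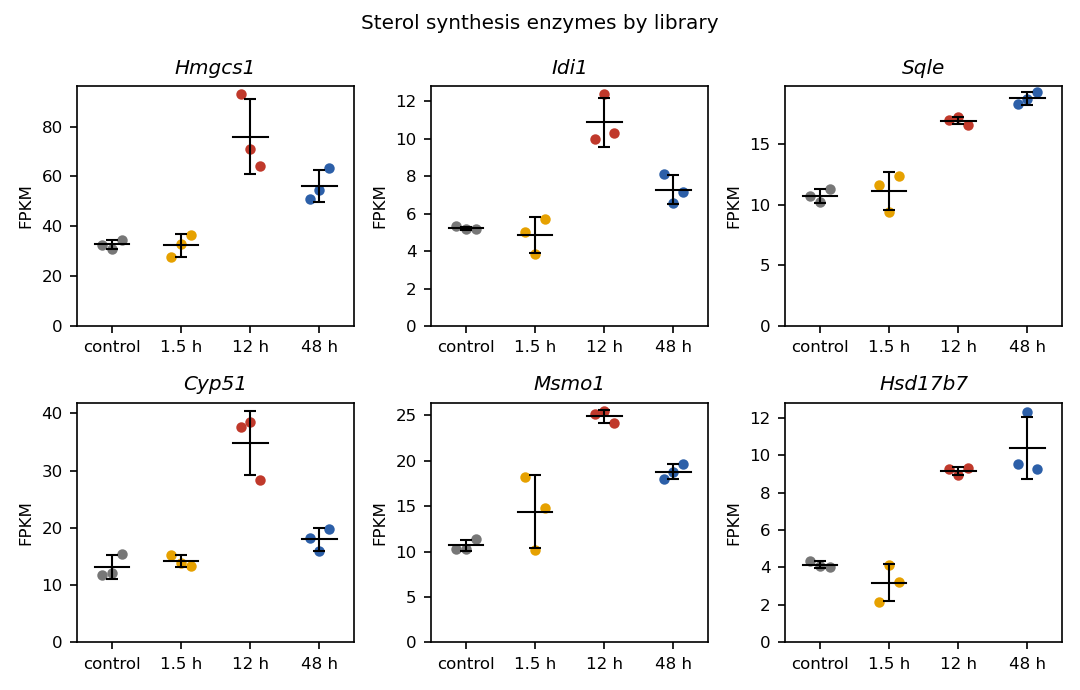
FPKM of 6 synthesis enzymes in control, 1.5 h, 12 h and 48 h libraries, with points for single libraries and bars for the mean and SD of 3 libraries. Hmgcs1, Idi1, Cyp51 and Msmo1 are highest at 12 h, while Sqle and Hsd17b7 have their highest means at 48 h.

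Among the 5 sensing genes at 12 h, Insig1 rose and 0 fell. Insig1, whose product retains Scap and which is itself an SREBP target, lies on chromosome 5 from 28071363 to 28078662 (ENSMUSG00000045294). It had 14.3, 14.2 and 15 FPKM in controls, 11.6, 15.6 and 16.9 FPKM at 1.5 h, 32.2, 30.2 and 31.1 FPKM at 12 h, and 20.7, 22.7 and 21.3 FPKM at 48 h. The 12 h libraries were the most abundant, the 48 h libraries lay between, and the log2 change at 12 h was 1.05 ± 0.13 (limma adjusted p = 0.00029). Its paralog Insig2, which is controlled separately from SREBP, had 11.6, 13.2 and 12.5 FPKM at 12 h, against 11, 13.9 and 12.5 FPKM in controls. Its groups overlapped, and the log2 change was 0.00 with a 95% interval of -0.26 to 0.26. The level ratio of Insig1 to Insig2 was 2.78, 2.29 and 2.48 at 12 h, against 1.30, 1.02 and 1.20 in controls.

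The SREBP genes leaned in different directions at 12 h without passing the test. Srebf2, the factor that chiefly drives sterol synthesis, had 48.4, 41.4 and 38.4 FPKM at 12 h, against 34.7, 33.0 and 34.6 FPKM in controls, with a log2 change of 0.31 ± 0.13 (limma adjusted p = 0.11). Srebf1, which chiefly drives fatty acid synthesis, had 5.92, 6.41 and 7.66 FPKM at 12 h, against 9.63, 8.90 and 9.70 FPKM in controls, with a log2 change of -0.45 ± 0.16 (limma adjusted p = 0.071). Srebf2 lay wholly above the controls and Srebf1 wholly below. After correction for gene length, Srebf1 had a change of -0.42 and an adjusted p of 0.047. Scap, the escort, had 10.6, 9.57 and 8.97 FPKM at 12 h, against 13.3, 11.9 and 11.7 FPKM in controls, with a log2 change of -0.32 ± 0.11 (limma adjusted p = 0.067).

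Of the 4 LXR and export genes, Abcg1, an exporter that loads lipoprotein particles with sterol, fell at 12 h and 0 rose. Abcg1 (chromosome 17, 31057698 to 31115777) had 15.3, 19.7 and 17.6 FPKM in controls, 11.7, 18.3 and 14.7 FPKM at 1.5 h, 10.5, 10.9 and 11.2 FPKM at 12 h, and 12.8, 12.7 and 14 FPKM at 48 h. Its 12 h libraries lay below all controls, and the log2 change was -0.64 ± 0.15 (limma adjusted p = 0.012), which became -0.56 with an adjusted p of 0.059 without control replicate 2. Abca1, the exporter to lipid-poor apolipoproteins, had 3.62, 3.15 and 3.78 FPKM at 12 h, against 2.97, 2.86 and 3.05 FPKM in controls, a log2 change of 0.19 ± 0.23 (limma adjusted p = 0.63). The receptor genes Nr1h2 and Nr1h3 had estimates of 0.11 and 0.06. Limma and voom each called 0 of the 5 turnover and transport genes at 12 h, with 1 at an unadjusted p under 0.05. That gene was Soat1, which esterifies cholesterol for storage, at 2.91, 2.15 and 3.21 FPKM at 12 h, against 1.68, 1.62 and 1.76 FPKM in controls (log2 change 0.47 ± 0.17, limma adjusted p = 0.078).

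At 48 h, 16 of the 17 tested synthesis enzymes again had positive estimates and 5 of them rose. Of the 31 tested members, 7 rose and 1 fell, or 25.8%, where 12.5% of all tested genes were called (7.5% higher, 5.01% lower). The 7 were the synthesis enzymes Hmgcs1, Sqle, Msmo1, Hsd17b7 and Ebp, with Insig1 and Abca1, and the median over the 17 enzymes was 0.44, over all 31 members 0.41 and over all genes 0.00. In 14 of the 17 enzymes, and in 21 of the 31 members, every 48 h library lay above every control, and in 3 members every library lay below, where 21.1% of all genes lay above and 22% below. The count of 8 called members was unstable, as was the share over all genes. It was 4 without control replicate 1 (7.03% of all genes called) and 3 without control replicate 2 (6.83%). It was 13 without 1.5 h replicate 1 (16.4%), 17 without 1.5 h replicate 2 (23.6%) and 18 without 1.5 h replicates 1 and 3 together (26.5%). Between 2 and 12 synthesis enzymes rose over these same omissions, and 0 fell.

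Hsd17b7 changed by 1.14 ± 0.16 at 48 h (limma adjusted p = 0.0012), with 10.4 ± 1.69 FPKM at 48 h and 4.15 ± 0.174 FPKM in controls. Sqle changed by 0.75 ± 0.11 (limma adjusted p = 0.0015), Hmgcs1 by 0.76 ± 0.16 (0.012) and Msmo1 by 0.76 ± 0.17 (0.012). The Hmgcs1 call was lost without control replicate 2 (0.72, adjusted p = 0.057) or 48 h replicate 4 (0.67, 0.052), and the Msmo1 call without control replicate 1 or 2 (0.74 and 0.051 each). Ebp, the sterol isomerase on chromosome X, was the enzyme called at 48 h and not at 12 h. Ebp had 6.45, 6.82 and 7.35 FPKM in controls, 19.6, 7.79 and 11.6 FPKM at 1.5 h, 8.17, 7.94 and 10.4 FPKM at 12 h, and 14.3, 17.0 and 13.8 FPKM at 48 h. Its 48 h libraries lay above all control and 12 h libraries, while the 1.5 h libraries spread across the range. The log2 change at 48 h was 1.02 ± 0.25 (limma adjusted p = 0.021), and leaving out any control library or 48 h replicate 3 gave an adjusted p of 0.050 to 0.077. Insig1 changed by 0.54 ± 0.13 (limma adjusted p = 0.021), and leaving out any control library, 48 h replicate 3 or 48 h replicate 4 gave 0.055 to 0.083 with changes of 0.50 to 0.56.

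The 12 other tested enzymes did not pass at 48 h. Mvd at 0.70 (limma adjusted p = 0.066) and Nsdhl, the sterol dehydrogenase of demethylation, at 0.63 (0.089) had the largest estimates among them. Nsdhl had 12.0, 14.5 and 11.4 FPKM at 48 h, against 7.86, 7.73 and 7.84 FPKM in controls, without overlap. Fdft1 was at 0.58, Cyp51 at 0.44, Pmvk and Idi1 at 0.41 each, Acat2 at 0.36, Mvk at 0.35, Sc5d at 0.31, Dhcr7 at 0.15, Lss at 0.13 and Tm7sf2 at -0.35. Ctsb, which overlaps Fdft1, had a log2 change of 0.95 at 48 h (limma adjusted p = 0.0016). Of the sensing genes other than Insig1, Srebf2 was at 0.07, Scap at -0.12 and Insig2 at 0.07 with a 95% interval of -0.19 to 0.33.

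**Figure D3:**
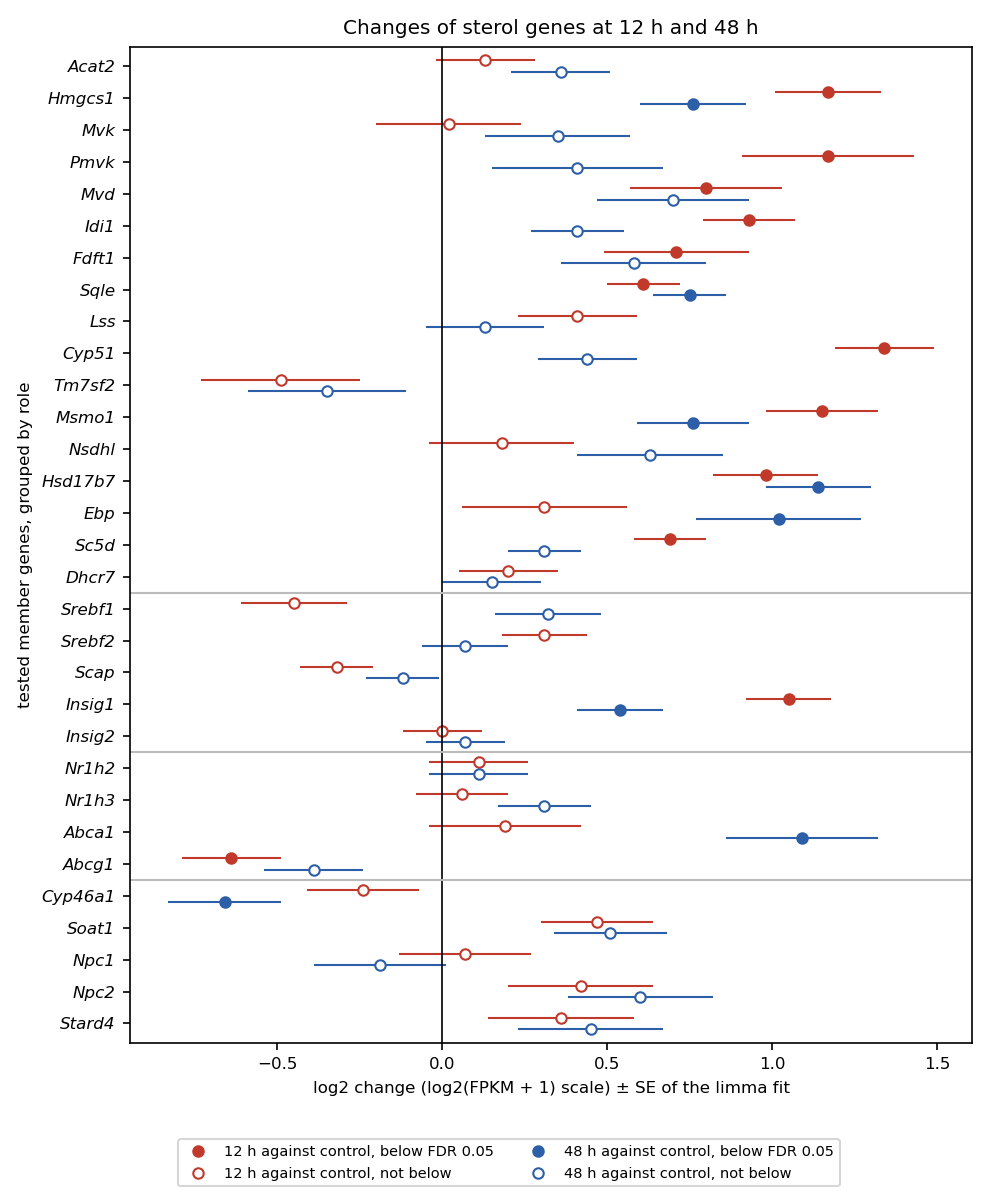
Change of the 31 tested members at 12 h (red) and 48 h (blue) against control on the log2(FPKM + 1) scale, with bars for the SE of the limma fit and filled points for adjusted p below 0.05. The synthesis enzymes at the top lie mostly right of 0 at both times, and Abca1 is near 0.19 at 12 h and 1.09 at 48 h.

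The sterol exporter Abca1 rose and the cholesterol hydroxylase Cyp46a1 fell at 48 h. Abca1 (ENSMUSG00000015243, chromosome 4, 53030787 to 53159895) had 2.97, 2.86 and 3.05 FPKM in controls, 1.41, 3.18 and 1.81 FPKM at 1.5 h, 3.62, 3.15 and 3.78 FPKM at 12 h, and 10.2, 5.01 and 7.91 FPKM at 48 h. Every 48 h library stood above all others, and the log2 change was 1.09 ± 0.23 (limma adjusted p = 0.011). With a correction for gene length it was 1.27, beside 1.19 for Hsd17b7. Cyp46a1 (chromosome 12, 108334381 to 108362234) was the member that fell, with 78.3, 81.3 and 68.2 FPKM in controls, 113, 91.6 and 91.0 FPKM at 1.5 h, 74.5, 59.4 and 58.6 FPKM at 12 h, and 38.4, 53.6 and 52.5 FPKM at 48 h. The 48 h libraries lay below all others, and the log2 change was -0.66 ± 0.17 (limma adjusted p = 0.028). The Cyp46a1 call was lost without control replicate 1 (-0.63, adjusted p = 0.10), control replicate 2 (-0.61, 0.11) or 48 h replicate 1 (-0.51, 0.082).

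The level ratio of Abca1 to Abcg1 was 0.799, 0.395 and 0.564 at 48 h, against 0.194, 0.145 and 0.173 in controls. Abcg1 itself had a log2 change of -0.39 ± 0.15 at 48 h (limma adjusted p = 0.13). Members that did not pass at 48 h included Soat1 at 0.51 ± 0.17 (0.082), Npc2, which hands cholesterol out of lysosomes, at 0.60 ± 0.22 (0.10), its partner Npc1 at -0.19, and Stard4, a soluble sterol carrier, at 0.45 (0.22). Npc2 had 18.8, 12.9 and 14.6 FPKM at 48 h, against 9.61, 9.66 and 10 FPKM in controls, with no overlap. Srebf1 had 15.1, 9.80 and 11.7 FPKM at 48 h, against 9.63, 8.90 and 9.70 FPKM in controls, also without overlap (log2 change 0.32 ± 0.16, limma adjusted p = 0.23).

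The members never called against control had their extremes in different groups. Nr1h2, the LXR form found in most cells, ran between 16.7 FPKM, in 48 h replicate 1 and control replicate 4, and 30.3 FPKM in 1.5 h replicate 1. Nr1h3, the form prominent in macrophages, ran between 1.31 FPKM in control replicate 2 and 2.61 FPKM in 48 h replicate 1. Nr1h3 overlaps 6873 bases of Gm13783 on the same strand, so the Nr1h3 values are uncertain. Gm13783 averaged 0.26 FPKM in controls, 4.27 FPKM at 12 h and 0.586 FPKM at 48 h. Npc1 had 3.0 FPKM and Stard4 1.69 FPKM in 1.5 h replicate 1, the lowest of all libraries for both, and up to 7.23 FPKM for Npc1 in 48 h replicate 1 and 7.92 FPKM for Stard4 in 12 h replicate 1. Mvk ran between 7.82 and 20.5 FPKM, Tm7sf2 between 2.74 and 8.74 FPKM and Nsdhl between 6.68 and 14.7 FPKM, each with its highest value in 1.5 h replicate 1. Acat2 ran between 12.3 and 20.2 FPKM, Dhcr7 between 5.29 and 8.15 FPKM, Lss between 1.98 and 5.10 FPKM and Insig2 between 11 and 14.2 FPKM.

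**Figure D4:**
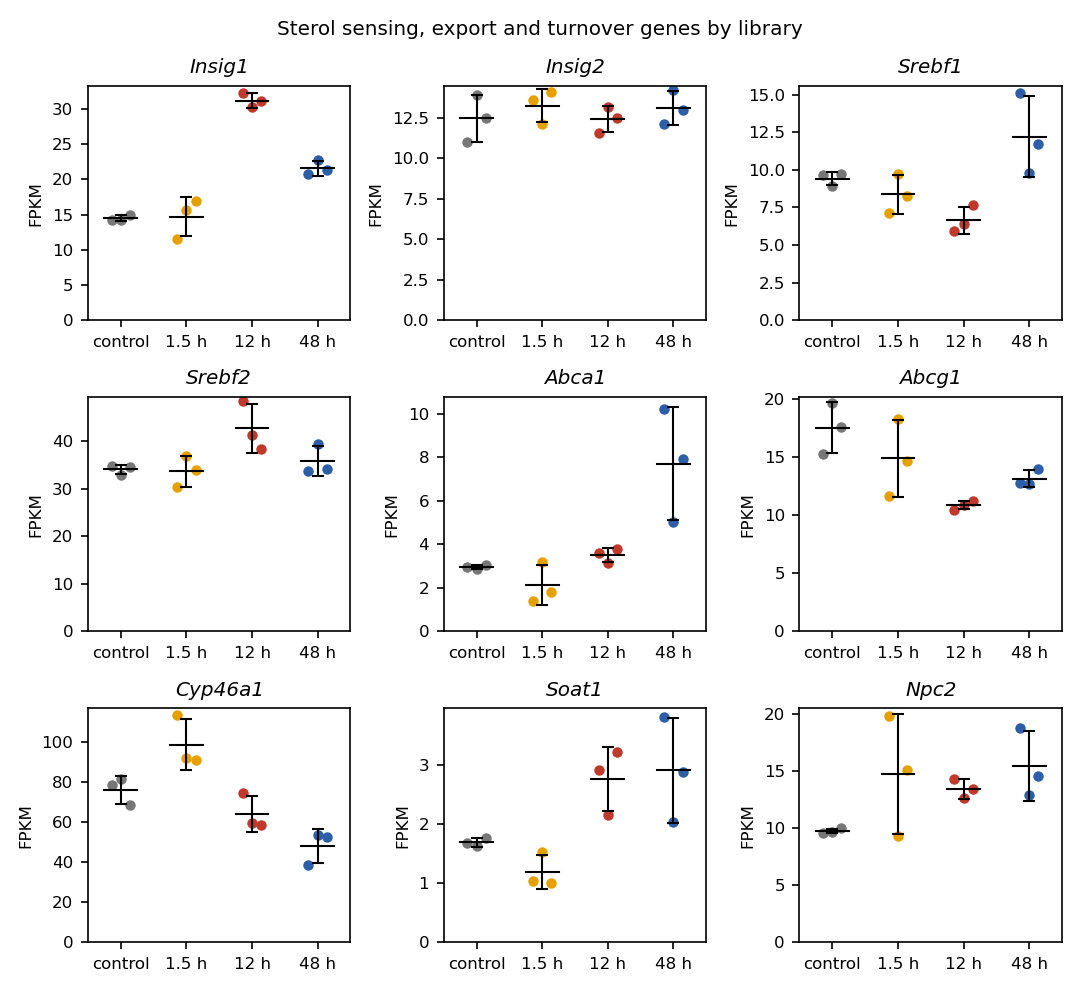
FPKM of 9 sensing, export, turnover and transport genes in control, 1.5 h, 12 h and 48 h libraries, with points for single libraries and bars for the mean and SD of 3 libraries. Insig1 is highest at 12 h while the Insig2 groups overlap, and Abca1 is highest and Cyp46a1 lowest at 48 h.

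At 1.5 h, 0 of the 31 members passed limma's test, where 0.555% of all genes were called (0.419% higher, 0.136% lower). In 5 members every 1.5 h library lay above every control and in 3 below, where 14.6% of all genes lay above and 12% below. At an unadjusted p under 0.05 there were 10 members, 8 higher and 2 lower, where 31.6% of all genes were below that p. The smallest adjusted p among the members was 0.086, for Mvd at 0.89 ± 0.23, and voom on the recovered reads also called 0. Replicates disagreed: Pmvk had 47.3, 18.5 and 37.5 FPKM and Ebp 19.6, 7.79 and 11.6 FPKM at 1.5 h, with replicate 2 close to the controls in both genes. In replicates 1 and 3 short members tended upwards and long members downwards, though not all did. Msmo1, at 6144 bases, was 0.72 and 0.44 above the control mean in them. The 7 members shorter than 3000 bases had medians of 1.14 and 0.68 on the log2 scale above the control mean in replicates 1 and 3, against -0.41 in each for the 7 members of 6000 bases or more, while replicate 2 had 0.06 and 0.00. Without replicate 2 the count of called members became 15, or 48.4%, a share near the 45.7% of all genes called in the same fit. The part that transcript length played in these calls was not tested. With all libraries and a correction for gene length, 0 members were called at 1.5 h, where 0.815% of all genes were. The median of the synthesis enzymes in replicates 1 and 3 was then 0.60 and 0.36, against 0.31 and 0.19 without the correction. Hmgcs1, Sqle and Insig1, which all rose later, had estimates of -0.03, 0.04 and 0.00 at 1.5 h.

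The times were also tested against each other. At 12 h against 1.5 h, 12 members rose and 4 fell, or 51.6% of 31 where 33.2% of all genes were called (16.9% higher, 16.3% lower), led by Hsd17b7 at 1.31, Cyp51 at 1.23 and Hmgcs1 at 1.20. The libraries of these times did not overlap in 13 members that were higher and 5 that were lower at 12 h, where 21.7% and 19.8% of all genes behaved so. Without 1.5 h replicates 1 and 3, which leaves 1 library at 1.5 h, Hsd17b7, Cyp51 and Hmgcs1 were at 0.98, 1.26 and 1.17. Mvk was then at -0.05, Tm7sf2 at -0.18 and Npc1 at 0.25. The part of transcript length in these moves was not tested. At 48 h against 12 h, 2 members rose and 4 fell, or 19.4%, where 15.6% of all genes were called (5.88% higher, 9.73% lower). All 48 h libraries lay above all 12 h libraries in 9 members and below in 8, where 21.4% and 22.2% of all genes did. Cyp51 fell by 0.90 (limma adjusted p = 0.0027), Idi1 by 0.52 (0.026), Insig1 by 0.51 (0.023) and Sc5d by 0.38 (0.041). Abca1 rose by 0.90 (limma adjusted p = 0.023) and Srebf1 by 0.77 (0.0082). Sqle, Hsd17b7, Hmgcs1, Msmo1 and Cyp46a1 were not called between 12 h and 48 h, which does not show that their levels were the same. This count of 6 was 3 without 12 h replicate 1 (10% of all genes called), 48 h replicate 1 (15%) or 48 h replicate 3 (9.66%). It was 2 without 12 h replicate 2 (9.14%), the unnumbered 12 h library (10.9%) or 48 h replicate 4 (10.3%). Idi1, Sc5d, Insig1 and Abca1 each lost their call on leaving out at least 4 single libraries, while their estimates came no nearer to 0 than -0.44, -0.33, -0.46 and 0.70 over 22 alternatives. At 48 h against 1.5 h, 9 members rose and 1 fell, or 32.3%, where 17.8% of all genes were called (8.91% higher, 8.87% lower), and all 48 h libraries lay above all 1.5 h libraries in 12 members and below in 2, where 14% and 13.9% of all genes did.

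Genes of the neighbouring routes are counted here list by list, beside the 21.2% of all genes called at 12 h and the 12.5% at 48 h, and the shares called ranged from 13.3% to 30% at 12 h and from 0% to 20% at 48 h, apart from the oxysterol genes. Of 15 tested genes of fatty acid synthesis under SREBP, 2 rose and 0 fell at 12 h (median 0.21), the elongases Elovl1 (1.27 ± 0.23, limma adjusted p = 0.0026) and Elovl5 (1.0 ± 0.21, 0.0066). At 48 h 2 rose and 0 fell (median 0.05), Elovl1 at 1.07 (0.010) and Me1, the cytosolic malic enzyme, at 0.62 (0.0078). Of 10 genes of SREBP processing and sterol-regulated degradation, 1 rose and 1 fell at 12 h (median -0.13). These were Sec24d, a coat protein of vesicles leaving the endoplasmic reticulum, at 0.99 ± 0.11 (limma adjusted p = 0.00012), and Mbtps1, the protease that makes the opening cut in SREBP, at -0.74 ± 0.13 (0.0023). At 48 h Sec24d was at 1.04, the only call of that list (median 0.01). Of 10 isoprenoid branch genes 1 rose and 2 fell at 12 h (median -0.04) and limma called 0 at 48 h (median 0.04), with 0 at an unadjusted p under 0.05 and 0 by voom. Nus1, a subunit of the dolichol-forming prenyltransferase, was at 0.45 (limma adjusted p = 0.035), Ggps1, which makes geranylgeranyl diphosphate, at -0.40 (0.019), and Fntb, a farnesyltransferase subunit, at -0.55 (0.032). All 3 calls were lost on leaving out any of 4 or more libraries, with an adjusted p of 0.050 to 0.13 for Nus1, 0.053 to 0.084 for Ggps1 and 0.054 to 0.13 for Fntb.

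Among genes that respond to sterol load or store lipid, Plin2 rose at both times. Ch25h, which makes an oxysterol from cholesterol, had 0.0428, 0 and 0.127 FPKM in controls, 0.122, 0.136 and 0.582 FPKM at 1.5 h, 2.61, 1.33 and 3.77 FPKM at 12 h, and 8.58, 2.91 and 3.39 FPKM at 48 h. Its 12 h and 48 h libraries lay above all controls, but it passed the filter on low values only through treated libraries, so no test is given for it. The other two tested oxysterol and bile acid genes were not called at either time. Plin2, which coats lipid droplets, had 1.20, 1.16 and 1.43 FPKM in controls, 2.34, 1.27 and 2.06 FPKM at 1.5 h, 9.41, 8.62 and 10.5 FPKM at 12 h, and 17.8, 7.62 and 8.03 FPKM at 48 h. All 12 h and 48 h libraries exceeded every other, with log2 changes of 2.21 ± 0.26 at 12 h (limma adjusted p = 0.00020) and 2.33 at 48 h (0.00021). The list of 18 tested carriers and lipid droplet genes had 2 risen and 1 fallen at each time, or 16.7% (medians 0.11 and 0.02). Its other calls were Gramd1a, a sterol transfer protein, at 0.45 and Nceh1, a cholesterol ester hydrolase, at -0.73 (limma adjusted p = 0.0089) at 12 h, and Tspo, a mitochondrial outer membrane protein, at 2.58 ± 0.21 (2.5e-05) and Osbpl1a, an oxysterol-binding protein, at -1.09 (0.0025) at 48 h. Gramd1a was lost on leaving out any of 5 libraries (adjusted p 0.061 to 0.095).

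Of 9 other LXR partners and targets, 1 rose and 1 fell at 12 h (median -0.08), and 0 rose and 1 fell at 48 h (median -0.19). Mylip, the LXR-induced ligase that degrades lipoprotein receptors, was at 0.62 at 12 h (limma adjusted p = 0.0057), and Abcg4, a sterol exporter, at -0.49 at 12 h (0.0054) and -0.44 at 48 h (0.015). The 48 h call of Abcg4 was lost without control replicate 1, control replicate 4 or 48 h replicate 4 (adjusted p 0.063 to 0.068). Of 10 lipoprotein genes, 2 rose and 1 fell at 12 h (median 0.26), and 2 rose and 0 fell at 48 h (median 0.06). Scarb1, a receptor for high-density lipoprotein, was at 0.68 at 12 h (limma adjusted p = 0.0040) and 0.75 at 48 h (0.0037). Lcat, which esterifies cholesterol on particles, was at 0.70 at 12 h (0.024) and lost its call on leaving out any of 4 libraries (0.053 to 0.10). Pltp, which moves phospholipid between particles, was at -1.26 at 12 h (0.0038). Apod, a lipocalin that carries small lipids, was at 1.79 at 48 h (0.012), and at 1.69 (0.055) without control replicate 2. At 1.5 h, limma and voom each called 0 of the 75 tested genes of these 7 lists, where limma called 0.555% of all genes. Of the 75, 27 were at an unadjusted limma p under 0.05, where 31.6% of all genes were.

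Markers of cell types that make or use sterol are given here beside the results above, and their part in those results was not tested. Oligodendrocyte markers had summed levels of 2460, 2000 and 2360 FPKM at 12 h, against 1250, 1080 and 1280 FPKM in controls. Of the 13 markers, 3 rose and 0 fell at 12 h, or 23.1% against 21.2% of all genes, namely the myelin genes Mobp at 1.38, Cldn11 at 1.36 and Mal at 1.22. Mobp was lost without control replicate 2 (1.29, limma adjusted p = 0.056), Cldn11 without any of 4 libraries (0.053 to 0.065) and Mal without any of 5 (0.057 to 0.084). At 48 h 0 of the 13 were called by limma or voom, with 0 at an unadjusted p under 0.05, and their summed levels were 1850, 763 and 779 FPKM. In 48 h replicates 3 and 4 the oligodendrocyte markers had medians of -0.48 and -0.45 relative to the control mean, while the synthesis enzymes had 0.55 and 0.50 in those libraries. In 48 h replicate 1 both lists were above control, at 0.72 for oligodendrocyte markers and 0.46 for synthesis enzymes. At 12 h both lists were above control, with synthesis medians of 0.69, 0.66 and 0.59 and oligodendrocyte medians of 0.75, 0.52 and 0.76.

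Microglia markers moved in both directions at 12 h and mostly upwards at 48 h. Their summed levels were 216, 217 and 216 FPKM at 12 h, 603, 683 and 639 FPKM at 48 h, and 191, 187 and 177 FPKM in controls. Of the 11 markers, 2 rose and 4 fell at 12 h (54.5%), where 21.2% of all genes were called. At 48 h 9 rose and 0 fell (81.8%), where 12.5% of all genes were called. The purinergic receptor P2ry12 was at -3.00 and Tmem119 at -2.02 at 12 h, while the complement genes C1qc at 2.88 and C1qb at 2.70 led at 48 h. The 4 tested of 9 markers of infiltrating myeloid cells summed to 15.6, 10.6 and 30.8 FPKM at 12 h, 99.4, 37.1 and 45.7 FPKM at 48 h, and 3.87, 3.75 and 3.63 FPKM in controls. Lyz2, a lysozyme gene of macrophages and neutrophils, made up most of this at 48 h with 95.2, 35.9 and 44.6 FPKM, against 3.73, 3.36 and 3.17 FPKM in controls, while the neutrophil marker Ly6g was at 0 in 11 of the 12 libraries. Within the 48 h group, Lyz2 and Abca1 were both highest in replicate 1 and lowest in replicate 3.

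The marker shares that follow stand beside 21.2% of all genes called at 12 h and 12.5% at 48 h. Astrocyte markers had 2 of 10 risen and 0 fallen at 12 h (20%), and 2 risen and 1 fallen at 48 h (30%). Their sums were 632, 589 and 597 FPKM at 12 h, 395, 358 and 411 FPKM at 48 h, and 513, 529 and 560 FPKM in controls. Neuron markers had 2 of 12 risen and 0 fallen at 12 h (16.7%). At 48 h limma called 0 of them (2 at an unadjusted p under 0.05, 1 by voom). Their sums were 1160, 1580 and 1500 FPKM at 48 h, against 1620, 1600 and 1500 FPKM in controls. The library with the lowest neuron sum, 48 h replicate 1, also had the lowest Cyp46a1 at 38.4 FPKM. In 48 h replicates 3 and 4, with neuron sums of 1580 and 1500 FPKM, Cyp46a1 was at 53.6 and 52.5 FPKM, below every control. Endothelial markers had 5 of 9 risen and 1 fallen at 12 h (66.7%) and 2 risen at 48 h (22.2%). Striatal markers had 1 of 9 called at 12 h (11.1%) and 3 fallen at 48 h (33.3%), with sums from 137 to 523 FPKM over all libraries. Thalamic markers had 0 of 7 called by limma or voom at any time against control, with 1 at an unadjusted p under 0.05 at 1.5 h and 0 at 12 h and 48 h, and with sums from 17.0 to 103 FPKM.

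**Figure D5:**
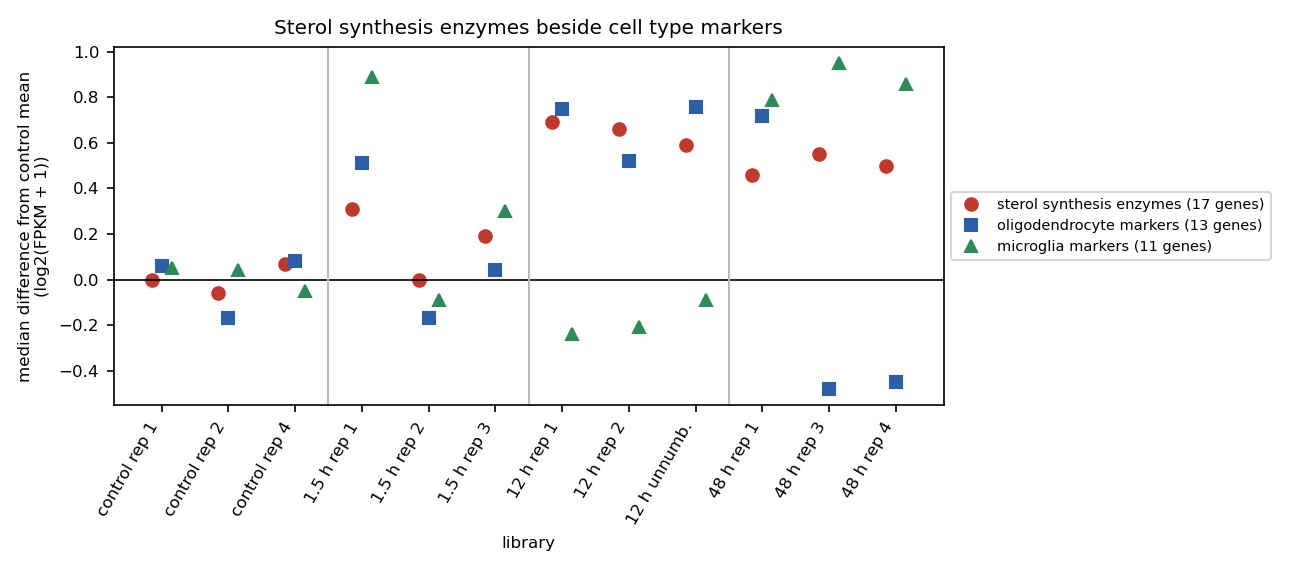
Median difference from the control mean on the log2(FPKM + 1) scale in each of the 12 libraries for the 17 tested synthesis enzymes (circles), 13 oligodendrocyte markers (squares) and 11 microglia markers (triangles). Synthesis enzymes lie between 0.46 and 0.69 at 12 h and 48 h, while oligodendrocyte markers lie below 0 in 48 h replicates 3 and 4 and at 0.72 in 48 h replicate 1.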

How the data were processed

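The 12 libraries hold total RNA of mouse brain. The labels' protocols name Trizol lysis, an extraction kit and standard Illumina library preparation, and Bowtie 0.12.2 and build mm8 are listed, per the submitters' processing notes. The authors deposited 1 table of FPKM values for 54532 genes. How multiply mapped reads and strand were counted is not given in the sources used here. The gene positions printed are the table's own, and 98.33% of the 54409 identifiers shared with GENCODE M21 (GRCm38) have the same position there, as do 29 of the 32 members.

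All FPKM values in every library were whole multiples of a read's worth for the gene's length, within a tolerance of 0.05, which gave the reads per library (15348579 to 17444654). Replicate libraries correlated at 0.919 to 0.987 over genes, and none of the 12 replicate pairs agreed within counting noise. Values were tested as log2(FPKM + 1) with limma 3.58.1 (R 4.3.3), with a mean-variance trend, 4 groups of 3 libraries, 8 residual degrees of freedom, 6 contrasts and Benjamini-Hochberg adjustment over 17664 genes above 0.5 FPKM in at least 3 libraries. The procedure was tested on simulated data with the same spread setting for all genes and groups. The simulation lacked the differences seen among the 1.5 h libraries, so it does not show how the procedure fares with them. Same-numbered libraries of different groups did not deviate together (11 pairs, median r -0.0035, range -0.264 to 0.156), and the main fit used no pairing. This comparison cannot exclude a pairing, since the 1.5 h libraries differed widely among themselves and could mask it.

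The members, gene lists and tests were chosen with earlier results of these data known. Members passing at any time against control are named with library values. In each other list of neighbouring genes, up to 2 rising and 2 falling genes with the smallest p are named, and Mal, Ctsb and values of members that did not pass were added after their values were seen. Promoters are RefSeq windows on GRCm38.p6, chosen by smallest p at 12 h, and those of members that passed are shown. Alternatives were another pseudocount, other filters, quantile and TMM scaling, a correction for gene length, fits of the compared groups only, a replicate block, the omission of each library, of 1.5 h replicates 1 and 3 together, and voom on the recovered reads.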

Additional observations from a re-analysis of the deposited data

Results flagged for a closer look

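Members are listed here because their level differed between times after PDT by a direct limma test of those groups, which gave 32 differences (adjusted p below 0.05). Changes are on the log2(FPKM + 1) scale.

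At 12 h against 1.5 h, 10 synthesis enzymes were called. Hsd17b7 was at 1.31, Cyp51 at 1.23, Hmgcs1 at 1.20, Idi1 at 1.03, Sc5d at 0.81, Msmo1 at 0.79, Lss at 0.78 and Sqle at 0.57, while Tm7sf2 was at -0.82 and Mvk at -0.64. Among the other members, Insig1 was at 1.05, Stard4 at 0.93, Soat1 at 0.78, Npc1 at 0.60, Cyp46a1 at -0.61 and Scap at -0.54. Without 1.5 h replicates 1 and 3, which leaves 1 library at 1.5 h, Mvk was at -0.05, Tm7sf2 at -0.18 and Npc1 at 0.25. Lss was then at 0.42, Stard4 at 0.49, Cyp46a1 at -0.52 and Soat1 at 0.57. Among the others, Hsd17b7 was at 0.98, Cyp51 at 1.26 and Idi1 at 1.30. The part of transcript length in these moves was not tested. The correction for gene length lost Mvk and Npc1. Over 22 alternatives Mvk was lost in 16, Npc1 in 14, Tm7sf2 in 8 and Cyp46a1 in 7, and each was lost without 1.5 h replicate 1 alone. Hmgcs1, Idi1, Cyp51, Hsd17b7, Sc5d and Insig1 were lost in 0.

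At 48 h against 12 h, Abca1 was at 0.90 and Srebf1 at 0.77, and Cyp51 was at -0.90, Idi1 at -0.52, Insig1 at -0.51 and Sc5d at -0.38. Over 22 alternatives Cyp51 was lost in 0, Srebf1 in 1, Idi1 in 5, Abca1 in 6, Insig1 in 7 and Sc5d in 12.

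At 48 h against 1.5 h, Abca1 was at 1.47, Hsd17b7 at 1.46, Stard4 at 1.01, Soat1 at 0.82, Hmgcs1 at 0.78, Sqle at 0.71, Insig1 at 0.54, Idi1 at 0.51 and Sc5d at 0.44. Cyp46a1 was at -1.03. Over 22 alternatives Hsd17b7 was lost in 0 and the others in 1 to 5, and Idi1, Sc5d and Insig1 were lost on leaving out single libraries.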

How the results depend on the processing

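The 52 calls of members over 6 comparisons were recomputed under 22 alternatives, and 0 of the 1144 values reversed. Of the 52, 18 held under every alternative, and of the 20 calls against control 10 did: Hmgcs1, Idi1, Sqle, Cyp51, Msmo1, Hsd17b7, Sc5d and Insig1 at 12 h, and Hsd17b7 and Abca1 at 48 h. Another pseudocount, a filter of 1 FPKM and TMM scaling lost 0 calls, quantile normalization 1, voom 1, no filter 3 and the length correction 3. The length correction also added calls, giving 15 members at 12 h (24.7% of all genes called) and 10 at 48 h (14.8%). Those added at 12 h were Lss (0.45, limma adjusted p = 0.019), Soat1 (0.51, 0.034) and Srebf1. At 48 h they were Mvd (0.64, 0.022) and Soat1 (0.68, 0.013). Of 26 calls in the neighbouring gene lists 10 held under every alternative, and of 41 calls in marker lists 20 did. These tallies include Ch25h and the myeloid markers S100a8, S100a9 and Arg1. Those genes passed the filter on low values only through treated libraries, so the tallies are no test of them. With the 2 compared groups alone in the fit, 20 members were called at 12 h (41.2% of all genes) and 15 at 48 h (21.5%). Between times, called members numbered 9 at 12 h against 1.5 h (13.5%) and 10 at 48 h against 12 h (22.6%). They numbered 1 at 48 h against 1.5 h (3.16%). Without 1.5 h replicates 1 and 3 they numbered 19 at 12 h (35.2% of all genes called) and 18 at 48 h (26.5%). In that fit they numbered 11 at 48 h against 12 h, or 35.5% of the tested members, where 30.6% of all genes were called. Over the omission of each library, called members ranged over 0 to 15 at 1.5 h (0.0623% to 45.7% of all genes called). At 12 h they ranged over 9 to 19 (13% to 32.5%) and at 48 h over 3 to 17 (6.83% to 23.6%). Between times they ranged over 12 to 20 at 12 h against 1.5 h (19.3% to 54.7%). At 48 h the range was 2 to 9 against 12 h (9.14% to 28%) and 7 to 19 against 1.5 h (10.6% to 44.2%). With a replicate block, 33 calls were lost. The block gave the unnumbered 12 h library a term of its own, so that library did not inform the comparisons. It also left fewer than the 8 residual degrees of freedom of the main fit. Members called numbered 8 at 12 h (7.48% of all genes called) and 2 at 48 h (4.1%). Between times they numbered 6 at 12 h against 1.5 h (6.4%) and 1 at 48 h against 12 h (2.66%). At 48 h against 1.5 h there were 2 (4.91%). Whether the numbers pair the libraries is not known, and the cause of these moves was not tested. The planned edgeR and DESeq2 fits were not run, since the deposited unit is FPKM, and voom took the recovered reads. With 3 libraries a group, a change that missed the threshold was not detectable here and is not shown to be absent.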
